A study of Mus musculus with 6 samples.

Results

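The genes described here encode the core machinery that keeps retroelements silent and copies or removes DNA methylation. They are Trim28, Setdb1, Ehmt2, Suv39h1, Dnmt1, Uhrf1, Hells, Dnmt3a, Dnmt3b and Tet1, and they were chosen by name, for their known roles. Of these 10 genes, 9 were found among the 14766 gene names that annotate the deposited reads, and Tet1 was the exception. Messenger RNA was sequenced from Mvt1 cells, a mouse mammary carcinoma line of strain FVB/N labelled as mammary epithelial cancer cells and known to come from a tumor with MMTV-driven c-Myc and Vegf transgenes. The untreated line was stained for the surface protein CD24 and sorted into CD24- and CD24+ cells, and RNA came from 3 plates of adherent cells in each group. No separate sorts are described, so p-values and SDs measure the spread between plates of 1 sorted population each. Whatever else differed between the 2 sorted populations cannot be told apart from CD24.

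Mammalian genomes carry many copies of retroelements, and most are held silent in chromatin. KRAB zinc finger proteins bind retroelement sequences and recruit the corepressor TRIM28, also called KAP1, which brings the histone methyltransferase SETDB1. SETDB1 places the trimethyl mark on lysine 9 of histone H3 (H3K9), and the H3K9 enzymes EHMT2 (G9a) and SUV39H1 act at euchromatin and at heterochromatin. DNA methylation at CpG sites adds a lasting layer, which DNMT3A and DNMT3B set up, DNMT1 and its partner UHRF1 copy at each replication, and the remodeller HELLS makes possible in packed chromatin. TET enzymes oxidise the methyl group and so open the way to its loss. VL30, ETn and IAP elements are families of mouse retroelements with long terminal repeats (LTRs). VL30 belongs to the ERV1 class of endogenous retroviruses, and ETn and IAP belong to the ERVK class.

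Each library held between 9046025 and 25692147 mapped reads, and CD24+ replicate 1 was the shallowest. Gene names took 71.8% to 74.3% of the reads of a library. Levels are given as CPM, reads per 1000000 gene reads of the library after TMM scaling, and repeats are given on the same scale. Cd24a, the gene of the sorted marker, had 10.2 ± 2.79 CPM on the CD24- plates against 77.3 ± 7.34 CPM on the CD24+ plates (SD, n = 3 each). The epithelial adhesion genes Cdh1 and Epcam were nearly absent, with 2 and 6 reads over all 6 libraries, although the label calls these cells epithelial. The keratins Krt8, Krt18 and Krt19 were the 3 epithelial markers of 8 with enough reads to test, and all 3 were lower in CD24+ cells, with log2 fold-changes of -1.04, -1.78 and -1.95. Of 6 mesenchymal markers, 5 were higher in CD24+ cells and Vim was not called. The log2 fold-change was 4.26 for Prrx1, 3.80 for Pdgfrb, 3.01 for Fn1 and 1.72 for Col1a1. Cd68, a macrophage gene, was lower in CD24+ cells (log2 fold-change -3.02), and the pan-leukocyte gene Ptprc had 2 reads. Of 4 endothelial markers 2 were tested. Cdh5 had 15, 24 and 15 reads on the CD24- plates against 3, 2 and 3 reads on the CD24+ plates and was called lower (edgeR adjusted p = 2.83e-04), and Tek was not called. The part of these markers in the results on the silencing genes was not tested.

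Most of the silencing and DNA methylation genes differed little between the groups, and more of them were lower in CD24+ cells than higher. Of the 9 genes tested, 5 were lower in CD24+ cells (Setdb1, Ehmt2, Suv39h1, Dnmt1 and Dnmt3a), 1 was higher (Hells) and 3 were not called (Trim28, Uhrf1 and Dnmt3b) at an adjusted p below 0.05. The same test called 46% of all 11130 genes tested, 21.8% as lower and 24.2% as higher. The balance over all genes turned with the scaling, from 2691 higher and 2426 lower with TMM to 2524 and 2638 with library totals and to 2449 and 2660 with totals of all mapped reads. The median log2 fold-change, CD24+ over CD24-, was -0.39 for the 9 genes and 0.02 for all genes tested. The groups did not overlap for 7 of the 9 genes, nor for 57.3% of all genes. Only Suv39h1 came near a 2-fold difference. In RNA from bulk cells, fewer cells that express a gene and less RNA per cell cannot be told apart.

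**Figure D1:**
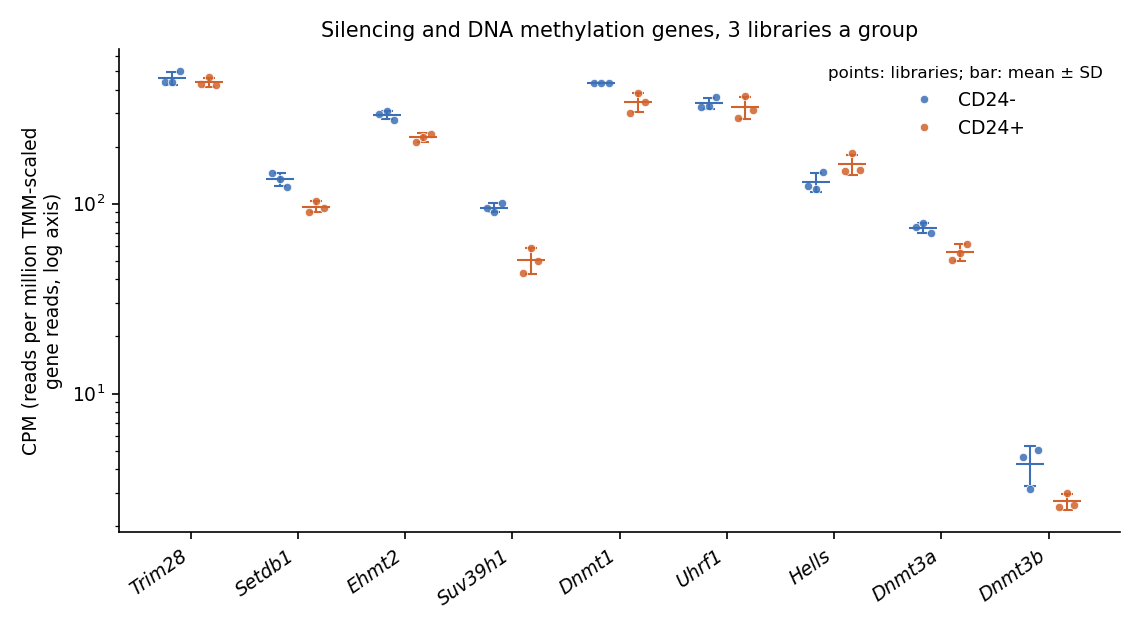
CPM of the 9 annotated genes on a log axis, with a point for each library, a bar at the mean and whiskers of 1 SD, for 3 CD24- and 3 CD24+ libraries. Suv39h1 showed the widest gap between the groups, Hells alone was higher in each CD24+ library than in each CD24- library, and Trim28 and Uhrf1 overlapped.

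Trim28 encodes the scaffold on which KRAB zinc finger proteins build a silencing complex. It had 439, 437 and 499.5 CPM on the CD24- plates against 426, 466 and 423 CPM on the CD24+ plates. The groups overlapped, and the log2 fold-change was -0.07 (standard error 0.09, edgeR adjusted p = 0.556). Setdb1 encodes the H3K9 methyltransferase that TRIM28 recruits. It had 145, 136 and 123 CPM on the CD24- plates against 90.8, 103.9 and 95.4 CPM on the CD24+ plates. Every CD24+ library was below every CD24- library, with a log2 fold-change of -0.47 (standard error 0.09, edgeR adjusted p = 0.00167).

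Ehmt2 encodes G9a, which mono- and dimethylates H3K9. Its levels were 296, 308 and 278 CPM on the CD24- plates against 212, 226 and 234 CPM on the CD24+ plates, without overlap, and its log2 fold-change was -0.39 (standard error 0.08, edgeR adjusted p = 0.00247). Suv39h1 encodes a trimethylase of H3K9 at pericentric heterochromatin. It had 95.1, 90.0 and 100.4 CPM on the CD24- plates against 43.0, 58.5 and 49.8 CPM on the CD24+ plates. The highest CD24+ library was well below the lowest CD24- library. The log2 fold-change was -0.90 (standard error 0.11, edgeR adjusted p = 1.01e-04), and it lay between -1.03 and -0.73 under all 14 alternatives tried. Its paralog Suv39h2 had 22.8 ± 3.61 CPM on the CD24- plates against 24.4 ± 0.97 CPM on the CD24+ plates and was not called (log2 fold-change 0.09, edgeR adjusted p = 0.610).

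Dnmt1 encodes the methyltransferase that copies methylation onto the new DNA strand. It had 431, 432 and 434 CPM on the CD24- plates, nearly the same value in each library. The CD24+ libraries were lower and less alike, with 302, 383 and 346 CPM. The log2 fold-change was -0.33 (standard error 0.09, edgeR adjusted p = 0.0152), and without CD24- replicate 1 the adjusted p was 0.0509. Uhrf1, whose protein brings DNMT1 to half-methylated CpG sites, had 325, 327 and 366 CPM on the CD24- plates against 283, 370 and 313 CPM on the CD24+ plates. The groups overlapped (log2 fold-change -0.07, standard error 0.11, edgeR adjusted p = 0.592). Within CD24+ cells both genes were lowest in replicate 1 and highest in replicate 2. Setdb1, Suv39h1, Hells and Dnmt3b had the same order, while Trim28, Ehmt2 and Dnmt3a did not.

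Hells encodes a SNF2-family remodeller, also called LSH, that DNA methylation of repeats needs in mouse cells. It was the one gene of the 9 called higher. Its levels were 124, 120 and 147 CPM on the CD24- plates against 148, 184 and 151 CPM on the CD24+ plates. CD24- replicate 3 and CD24+ replicate 1 were almost level, so the groups were only just apart. The log2 fold-change was 0.31 (standard error 0.11, edgeR adjusted p = 0.0436). This call was lost under 9 of the 14 alternatives, with adjusted p-values up to 0.302. It was lost without CD24- replicate 1 (0.143), CD24- replicate 2 (0.150), CD24+ replicate 2 (0.181) or CD24+ replicate 3 (0.0767). Under the 14 alternatives the log2 fold-change stayed positive, between 0.14 and 0.40. Beside Hells, of 17 genes of DNA replication tested, 2 were higher, 2 were lower and 13 were not called. Their log2 fold-changes ran from -0.92 for Rrm2, a subunit of ribonucleotide reductase, to 0.38 for Gins2, with a median of 0.00. Of 9 mitotic genes 2 were higher and 7 were not called. In both lists the share called was below the 46% of all genes.

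Dnmt3a encodes a methyltransferase that sets new methylation marks. It had 75.5, 79.3 and 70.0 CPM on the CD24- plates against 50.7, 54.8 and 61.4 CPM on the CD24+ plates, without overlap. The log2 fold-change was -0.42 (standard error 0.10, edgeR adjusted p = 0.00482), and with each distinct sequence counted once the adjusted p was 0.0855. Dnmt3b, the other de novo enzyme, was scarce. Its reads numbered 44, 33 and 45 in CD24- cells and 16, 53 and 49 in CD24+ cells, which are 4.62, 3.12 and 5.06 CPM against 2.52, 3.0 and 2.58 CPM. The groups did not overlap, but the log2 fold-change of -0.64 did not pass the threshold (standard error 0.24, edgeR adjusted p = 0.0540). It passed under 4 of the 14 alternatives, namely library totals without TMM (0.0462), totals of all mapped reads (0.0456), reads of a single GENCODE M21 gene (0.0366) and without CD24- replicate 2 (0.0278).

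Tet1 encodes an enzyme that oxidises methylated cytosine. No read carried its name as annotation. An exact match of the reads to GENCODE M21 transcripts found 6 reads over all 6 libraries that fit Tet1 transcripts alone, with at most 2 in a library. A count of 0 allows up to 3 reads in a library, so the gene was not detectable at this depth in either group.

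Levels can be compared between genes only per length, as reads per kilobase and per 1000000 gene reads without TMM scaling, counted on 1 GENCODE M21 transcript per gene. The length is the number of positions at which a read of 47 bases can start and stay inside an exon, which was 2472 for Trim28 and 8630 for Dnmt3a. On that scale, and over the 3 CD24- libraries, Trim28 was highest with 176 ± 11.6, ahead of Uhrf1 with 116 ± 6.57, Dnmt1 with 114 ± 1.54 and Ehmt2 with 99.0 ± 5.79 (SD, n = 3). Uhrf1 and Dnmt1 did not differ beyond their spread and have no order. Suv39h1 at 38.8 ± 1.36 and Setdb1 at 33.0 ± 2.95 followed. Reads that also fit other genes were counted on this scale. Suv39h1 took 919, 972 and 886 reads in the CD24- libraries, but only 728, 769 and 716 reads fit Suv39h1 alone. For Uhrf1 these were 2936, 3307 and 3080 reads against 2494, 2811 and 2645. The order of Suv39h1 and Setdb1, and that of Uhrf1 beside Dnmt1 and Ehmt2, is therefore uncertain. Dnmt3a had 8.0 ± 0.66, Dnmt3b had 1.10 ± 0.27 and Tet1 had 0.010 ± 0.012. In CD24+ cells Trim28 was again highest with 167 ± 9.82, and Uhrf1 had 109 ± 15.2, Dnmt1 had 89.3 ± 10.4 and Ehmt2 had 74.9 ± 3.65. Setdb1 with 24.2 ± 1.59 and Suv39h1 with 20.3 ± 2.68 were below these. The lowest Setdb1 library had 22.9 and the highest Suv39h1 library 23.1, so these 2 genes have no order in CD24+ cells. Hells had 30.6 ± 2.92 and 38.6 ± 5.36, but the stretch past the midpoint of the chosen transcript of 5868 bases held only 21.6% to 25.0% of its reads, against 54.8% to 64.7% for the 6 genes placed above and 40.8% to 48.2% for Dnmt3a. Its value per length is therefore too low for the part that was read, and Hells was not placed in the order. The maintenance enzyme Dnmt1 stood far above the de novo enzymes Dnmt3a and Dnmt3b in each group, since these had 5.90 and 0.687 in CD24+ cells.

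Dnmt3a has a second promoter inside the gene, which makes a shorter protein that lacks the first part of the long one. The start of that shorter transcript lies at position 3891744 of chromosome 12 (GRCm38). Exons 1 to 6 of the long transcript lie before it, and exons 7 to 22 are shared. Reads in the upstream exons made up 35.4%, 36.4% and 24.6% of the reads in both parts in CD24- cells and 25.3%, 26.8% and 30.99% in CD24+ cells. Reads of the long transcript alone, spread evenly, would give 33.5%. The groups overlapped, with means of 32.1 ± 6.56% and 27.7 ± 2.94% (SD, n = 3 each) and an exact permutation p of 0.4 (2-sided, smallest possible 0.1). The shares rest on 22 to 90 upstream reads in a library. The long transcript was thus measured in both groups, and no difference in promoter use was detectable at this depth.

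The genes lie on different chromosomes, except Ehmt2 and Uhrf1, which are both on chromosome 17. Suv39h1 is on chromosome X from 8061171 to 8074760, on the minus strand, and Hells is on chromosome 19 from 38930915 to 38971051, on the plus strand (GRCm38, GENCODE M21). RefSeq starts with 300 bases around them, 250 before and 50 after the start, were at hand for all 10 genes, 17 starts in all. CpG sites numbered 2 to 47 in these windows, beside a median of 7 in all 32851 windows of that length. Words of the E2F type (TTTGGCGC, TTTCCCGC, TTTCGCGC or TTTGCCGC, on either strand) are frequent at genes of the cell cycle. They stood in 4 of the 17 windows, those of Dnmt1, Uhrf1, Hells and Suv39h1, and in 2.26% of all windows. Each of the 4 words holds a CpG, and these 4 windows held 33, 33, 34 and 37 CpG sites. The share over all windows was not matched for CpG sites. The 250 bases before the start are shown for Suv39h1, the gene with the largest difference, and for Hells, the one called higher, as RefSeq gives them on GRCm38.p6. They run 5′ to 3′ on the strand of the gene, with the word in capitals, and the Suv39h1 start is the CpG-richer of its 2 starts.
Suv39h1, chrX:8074362-8074611, minus strand: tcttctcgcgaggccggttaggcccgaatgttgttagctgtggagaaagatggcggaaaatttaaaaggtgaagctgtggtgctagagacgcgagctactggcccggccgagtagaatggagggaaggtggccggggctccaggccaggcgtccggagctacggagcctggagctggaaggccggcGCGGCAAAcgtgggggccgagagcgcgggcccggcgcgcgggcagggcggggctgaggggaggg
Hells, chr19:38930740-38930989, plus strand: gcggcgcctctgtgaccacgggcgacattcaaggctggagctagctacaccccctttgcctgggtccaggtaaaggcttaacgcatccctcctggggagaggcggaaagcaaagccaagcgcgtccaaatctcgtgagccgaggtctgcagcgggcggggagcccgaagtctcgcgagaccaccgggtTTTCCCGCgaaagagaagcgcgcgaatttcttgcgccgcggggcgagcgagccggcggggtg
Both windows held 1 such word, at positions -64 and -62 from the start. No such word stood in the window of the other Suv39h1 start. A match of letters is a description and shows no binding.

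The wider pathway was taken as 51 other genes in 7 lists. Of these, 47 were tested, 14 were lower in CD24+ cells, 5 were higher and 28 were not called. With each distinct sequence counted once, 9 were called, while the calls over all genes went from 5117 to 3699. The share called, 19 of 47, was below the 46% of all genes, and the median log2 fold-change was -0.11. No gene of these lists reached a log2 fold-change of 1 in either direction. The genes named below were chosen because they were called, after their values were seen.

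Among partners of TRIM28 and SETDB1 and the HP1 proteins that read H3K9 methylation, 8 genes were tested, 3 were lower and 2 higher, beside 21.8% lower and 24.2% higher of all genes. Atf7ip, which stabilises SETDB1, was lower (log2 fold-change -0.45, adjusted p = 0.00550), as were Chd4, the ATPase of the NuRD complex (-0.42), and Cbx1, which encodes HP1 beta (-0.28). Cbx5, which encodes HP1 alpha, was higher (0.36), as was Resf1, a SETDB1-associated silencing factor (0.34). Of the HUSH complex, Mphosph8 and Pphln1 were tested and had log2 fold-changes of 0.01 and 0.23, and Morc2a, whose product works with HUSH, had -0.17. None of the 3 was called. At an unadjusted p below 0.05 the edgeR fit gave 1 of these 3, Pphln1, and DESeq2 called 0. Among other H3K9 methyltransferases, Ehmt1, whose protein pairs with G9a, was lower (-0.43, adjusted p = 0.00624), so both subunits of the G9a and GLP enzyme had fewer reads in CD24+ cells, and the other 4 were not called.

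Of 6 enzymes that remove H3K9 methylation, 3 were lower, 1 was higher and 2 were not called, beside 21.8% lower and 24.2% higher of all genes. Kdm4b (log2 fold-change -0.63, adjusted p = 1.98e-04), Kdm3a (-0.40) and Kdm1a, which encodes LSD1 (-0.35), were lower and Kdm4a was higher (0.38). Of 7 genes of histone chaperones and their histone H3.3, Daxx (-0.42), Atrx (-0.26) and H3f3a (-0.32) were lower and the other 4 were not called. DAXX and ATRX place H3.3 at silent repeats. H3f3a and H3f3b both encode H3.3. H3f3b had 70452 reads, against 14905 of H3f3a, and was not called (-0.13, adjusted p = 0.263). Only 4378 reads, whatever their annotation, matched the GENCODE M21 transcripts of H3f3a alone, so its value is uncertain. Of 12 cofactors and readers of DNA methylation, the methyl-CpG binding genes Mbd2 (-0.27) and Mbd1 (-0.25) were lower and the others were not called.

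On the side of demethylation, 6 genes other than Tet1 were tested. Of these, 2 were lower and 2 higher, beside 21.8% lower and 24.2% higher of all genes. Ogt (log2 fold-change -0.30, edgeR adjusted p = 0.0655) and Tdg (-0.28, 0.274) were not called. Only 316 reads were annotated to Tdg, against 1777 that match its GENCODE M21 transcripts alone, so its value is uncertain. Tet2 was lower, with 32.9 ± 1.39 CPM on the CD24- plates against 21.8 ± 2.56 CPM on the CD24+ plates (log2 fold-change -0.58, adjusted p = 0.00192). Idh1, which makes the 2-oxoglutarate that TET and JmjC enzymes use, was higher, with 221 ± 67.9 and 373 ± 37.0 CPM (0.75, adjusted p = 0.00954). Idh2, its mitochondrial counterpart, was lower (-0.35) and Smug1, a uracil glycosylase, was higher (0.40). Tet3 carried no annotation of its name, but reads that match its transcripts alone were plentiful, at 187 ± 8.55 per 1000000 such reads on the CD24- plates and 113 ± 13.7 on the CD24+ plates. In an edgeR fit of reads that match 1 GENCODE M21 gene, which called 45.6% of 12137 genes, the log2 fold-change of Tet3 was -0.73 (standard error 0.10, adjusted p = 1.53e-04). Tet2 and Tet3, the TET genes with reads above the floor, were therefore both lower in CD24+ cells.

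**Figure D2:**
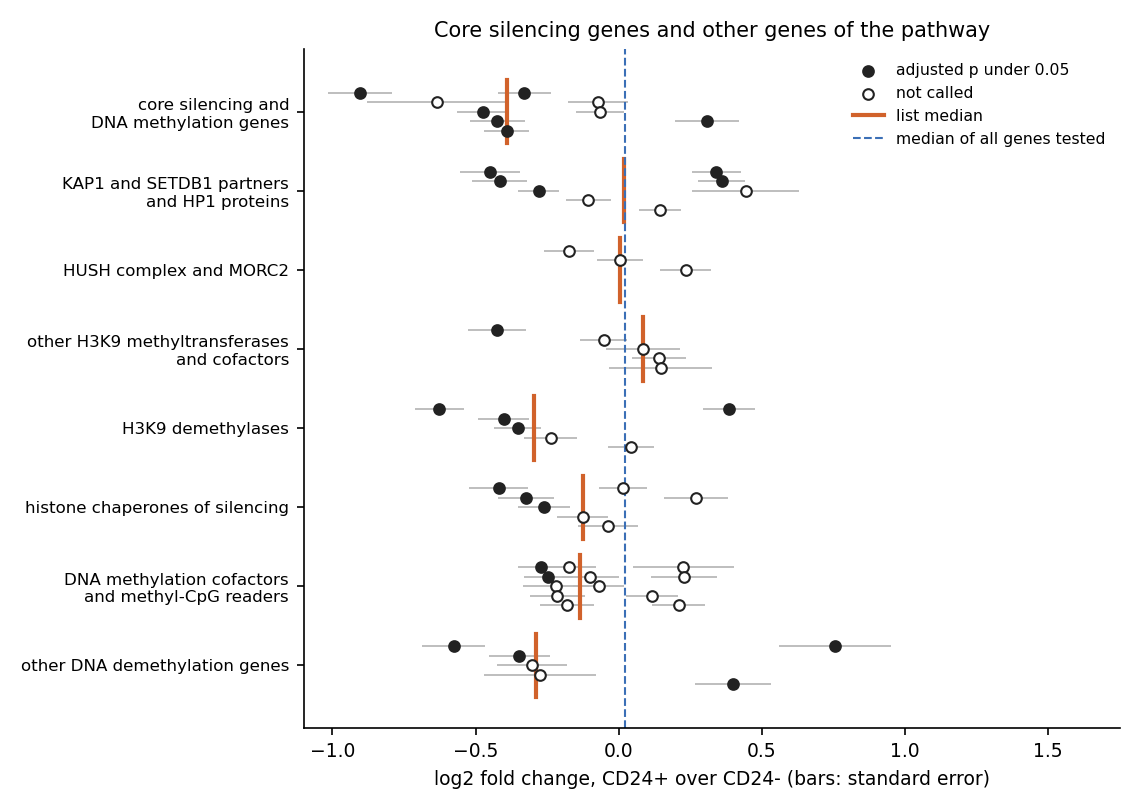
Log2 fold-change, CD24+ over CD24-, of the 9 core genes and of 47 other genes in 7 pathway lists, with whiskers of 1 standard error. Filled points passed an adjusted p of 0.05, orange bars are list medians and the dashed line is the median of all genes tested (0.02). The median of the core genes was -0.39, those of the lists lay between -0.30 and 0.09, and no point lay beyond 1 in either direction.

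Retroelements, which these genes hold down in other systems, differed unequally. VL30 and ETn reads differed by more than any of the 9 core genes, while IAP and LINE L1 reads overlapped between the groups. The VL30 and ERVK reads were chosen because they were already known to differ in these data, so their p-values are no independent support. Sums over a family are given as reads per 1000000 gene reads without TMM scaling, so they differ slightly from the CPM of single kinds. VL30 reads (the internal part MMVL30-int and its LTR RLTR6_Mm) came to 5626, 4741 and 4021 on that scale on the CD24- plates and to 446, 535 and 468 in CD24+ cells. Every CD24+ library was far below every CD24- library, with a mean log2 ratio of -3.30 (exact permutation p = 0.1, 2-sided, the smallest that 3 against 3 can give). Other ERV1 reads came to 5223, 5055 and 4417 and to 2670, 3456 and 3351, a log2 ratio of -0.64 (exact permutation p = 0.1). They include RLTR6-int, which shares its name with RLTR6_Mm and had a log2 fold-change of -1.14 (edgeR adjusted p = 1.56e-07). RLTR6-int was named after its values were seen. ERVK reads came to 39694, 38930 and 41194 in CD24- cells and to 35942, 37116 and 37655 in CD24+ cells, a log2 ratio of -0.11 (exact permutation p = 0.1). LINE L1 reads overlapped between the groups (11124 ± 441 and 10354 ± 530, SD, n = 3 each, exact permutation p = 0.2). When every distinct sequence counted only once, the log2 ratios became -1.49 for VL30, -0.09 for other ERV1 and -0.20 for ERVK. That count gives abundant and rare sequences equal weight, so it does not measure how many reads a family took.

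The ERVK total hides unequal parts, which were split by name after the values were seen. IAP names held most of it, with 33532 ± 743 reads per 1000000 gene reads on the CD24- plates and 32638 ± 566 on the CD24+ plates, a log2 ratio of -0.04 with overlap between the groups (exact permutation p = 0.2). ETn names went from 2169 ± 198 to 663 ± 145, a log2 ratio of -1.73 (exact permutation p = 0.1). The other 126 ERVK kinds went from 4238 ± 213 to 3603 ± 369, a log2 ratio of -0.24 (exact permutation p = 0.1).

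By kind of repeat, 621 kinds were tested on the scale of the gene fit, and 17.1% were called, 12.1% as lower in CD24+ cells and 4.99% as higher. The groups did not overlap for 42.5% of kinds. The call count of 106 fell to 60 without CD24- replicate 1, to 68 without CD24- replicate 3 and to 66 without CD24+ replicate 3, and it was 147 without CD24+ replicate 2. With each distinct sequence counted once it was 26. Of 137 ERVK kinds, 28 were lower and 8 higher, and of 60 ERV1 kinds, 10 were lower and 2 higher.

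MMVL30-int had 4823, 4033 and 3503 CPM on the CD24- plates against 372, 455 and 392 CPM on the CD24+ plates (log2 fold-change -3.34, standard error 0.12, edgeR adjusted p = 6.38e-12). Its LTR, RLTR6_Mm, had 716, 646 and 510 CPM and 83.4, 83.1 and 77.8 CPM (-2.94, standard error 0.12, adjusted p = 1.99e-11). Counting each distinct sequence once brought these fold-changes to -1.56 for MMVL30-int and -1.31 for RLTR6_Mm on the log2 scale. The LTR and the internal part thus differed by similar amounts under either count. Of the 5 ERVK kinds with the most reads, MMETn-int alone was called. It had 1559, 1502 and 1822 CPM on the CD24- plates against 366, 579 and 419 CPM on the CD24+ plates (-1.84, standard error 0.14, adjusted p = 4.54e-08), and its log2 fold-change was -1.25 with each distinct sequence counted once.

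IAPEz-int, the internal part of IAP elements, was the most abundant retroelement kind. It had 30473, 30167 and 31956 CPM on the CD24- plates against 30269, 30120 and 30772 CPM on the CD24+ plates. The groups overlapped closely, and edgeR gave a log2 fold-change of -0.02 with a standard error of 0.07 and an adjusted p of 0.822. IAPLTR1_Mm (0.13), RLTR19-int (0.02) and IAPLTR1a_Mm (0.03) were not called either. A rarer IAP kind, IAP-d-int, went the other way, from 17.3 ± 2.94 to 118 ± 12.6 CPM (log2 fold-change 2.77, adjusted p = 1.91e-10). It was named after its values were seen, as was RLTR4_MM-int of the ERV1 class, which fell from 3074 ± 328 to 1850 ± 296 CPM (-0.73, adjusted p = 2.30e-04).

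**Figure D3:**
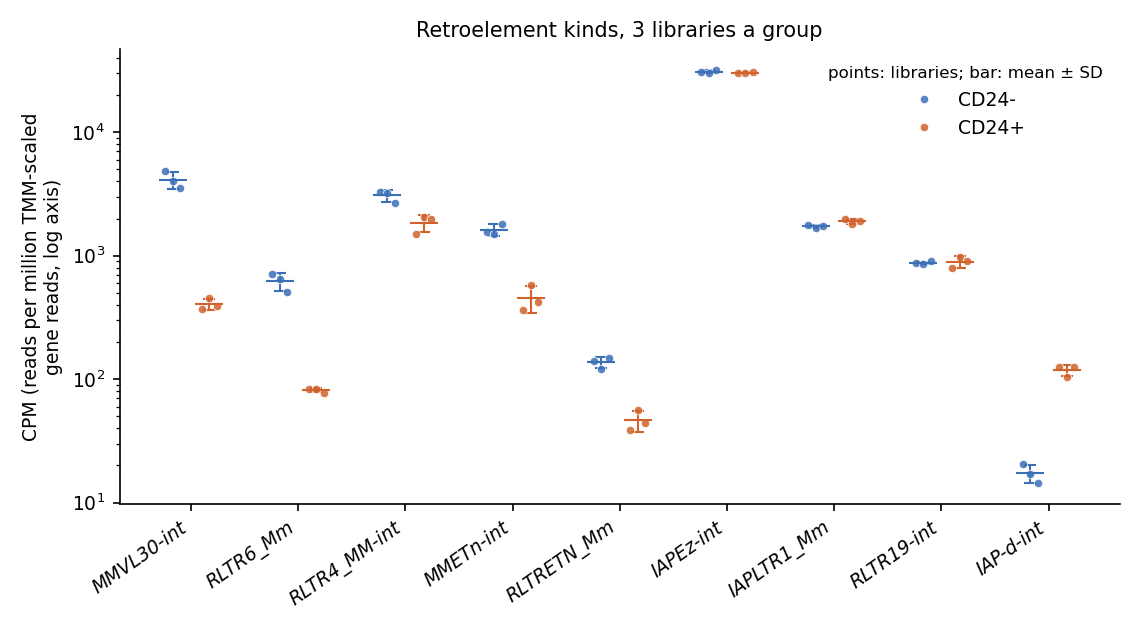
CPM of 9 retroelement kinds on a log axis, with a point for each library, a bar at the mean and whiskers of 1 SD, for 3 CD24- and 3 CD24+ libraries. VL30 and ETn kinds were lower in CD24+ cells, IAPEz-int stood at about the same level in all 6 libraries, and IAP-d-int was higher in CD24+ cells.

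A frequent distinct read of each of 5 kinds is shown as the file gives it, 47 bases long. CpG, the site that DNA methyltransferases act on, is in capitals. The choice did not cover reads at every location, so a more frequent read of a kind may exist. The locations are the single ones the authors assigned on mm9, and a repeat read may fit other copies as well.
MMVL30-int, chr13:66487970-66488016: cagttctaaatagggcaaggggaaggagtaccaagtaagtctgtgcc
RLTR6_Mm, chr10:47176379-47176425: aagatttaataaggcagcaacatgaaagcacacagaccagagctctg
MMETn-int, chr13:67337719-67337765: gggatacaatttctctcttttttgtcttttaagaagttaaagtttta
IAPEz-int, chr13:44365730-44365776: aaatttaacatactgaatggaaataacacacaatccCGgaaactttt
IAP-d-int, chr11:61205508-61205554: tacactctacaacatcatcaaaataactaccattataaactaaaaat
The VL30 read occurred 313, 122 and 234 times in CD24- libraries and 9, 59 and 36 times in CD24+ libraries. The IAPEz-int read occurred 690, 612 and 620 times and 466, 1202 and 1360 times, or 66.7 ± 7.72 and 70.9 ± 2.70 CPM. The read shown made up 0.56% of MMVL30-int reads and 0.22% of IAPEz-int reads, so neither of these 2 reads carried its kind.

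**Figure D4:**
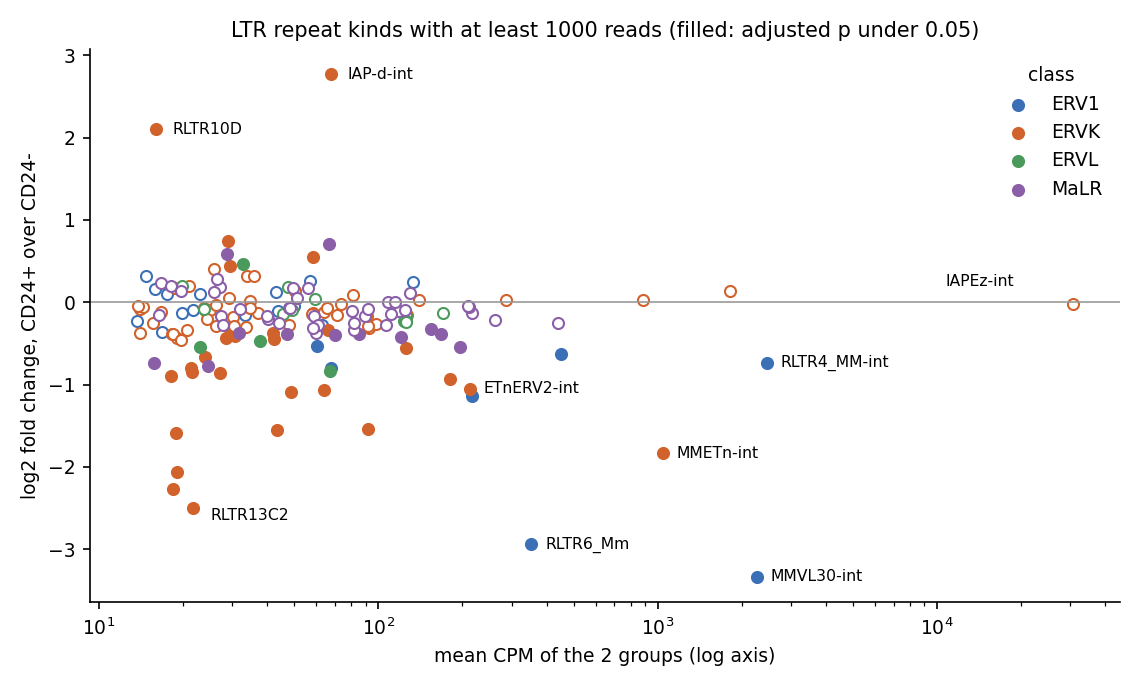
Log2 fold-change, CD24+ over CD24-, against the mean CPM of the 2 groups (log axis) for the LTR repeat kinds with at least 1000 reads, coloured by class, with kinds called at an adjusted p of 0.05 filled. MMVL30-int and RLTR6_Mm lay lowest, at -3.34 and -2.94, MMETn-int lay at -1.84, and IAPEz-int, the most abundant, lay at -0.02.

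Some other genes are commonly read beside loss of DNA methylation. Of 14 germline genes that methylation is known to keep silent in somatic cells, 5 carried an annotation and 3 had enough reads to test. Sycp1, a synaptonemal complex gene, went from 7.57 ± 0.60 to 2.90 ± 0.08 CPM (log2 fold-change -1.37, adjusted p = 1.58e-04), and Sycp3 went from 3.05 ± 1.14 to 6.57 ± 0.10 CPM (1.10, adjusted p = 0.00490). None of the reads annotated to Sycp3 matched its GENCODE M21 transcripts alone, so its value is uncertain, and the same held for Stk31, which was not called. Dazl, Ddx4, Mael, Asz1, Hormad1, Rhox5, Dppa3 and Slc25a31 had 0 reads on their transcripts in all 6 libraries, a count that allows up to 3 reads in each.

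Of 9 tested sensors of viral and retroelement nucleic acids and their adaptors, 4 were higher in CD24+ cells, 0 were lower and 5 were not called. The share called was near the 46% of all genes, and the median log2 fold-change was 0.16. Among those not called, Eif2ak2, which encodes the kinase PKR, had -0.33 and the RNA editing gene Adar had -0.11. Tlr3, an endosomal sensor of double-stranded RNA, went from 9.72 ± 0.27 to 22.5 ± 2.24 CPM (log2 fold-change 1.23, edgeR adjusted p = 2.69e-05). Ifih1, which encodes the cytosolic sensor MDA5, went from 6.03 ± 0.18 to 13.7 ± 1.59 CPM (1.19, adjusted p = 1.37e-04). Dhx58 (0.78) and Mb21d1, which encodes cGAS (0.67), were the other 2. Tmem173, which encodes the adaptor STING, carried no annotation of its name. It was lower in CD24+ cells in the edgeR fit of reads that match 1 GENCODE M21 gene (-0.30, adjusted p = 0.0318).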

How the data were processed

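Messenger RNA of 3 CD24- and 3 CD24+ plates of Mvt1 cells was sequenced. Per the study's methods, the authors cut single-end reads to 47 nt and merged duplicates while keeping their number, then mapped the unique sequences to the genome by exact match and settled multiple annotations by a hierarchy. The deposited files give each sequence 1 location and 1 annotation. The deposited counts are raw occurrences of each sequence, not normalized and not pooled. The labels name the build mm9, while no source used here gives the mapper or where the annotation came from. Exact matching loses junction-spanning reads and reads with errors or sequence variants. The study's methods see no substantial impact of this on gene levels. Its part in the retroelement levels was not tested. Values of genes that overlap are uncertain because strand is not kept.

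The counts were summed per annotation in Python 3.11.15. Genes passing filterByExpr were tested with edgeR 4.0.16 in R 4.3.3 (TMM, quasi-likelihood F test, Benjamini-Hochberg adjustment over all genes, threshold 0.05), and repeat kinds were tested in the same way with the effective library sizes of the gene fit. Repeats took 5.93% to 7.83% of reads, small RNA 1.22% to 3.94% and reads with no annotation 16.9% to 20.2%, all left out of gene totals. Sums (per 1000000 gene reads, without TMM) and shares were compared by exact permutation. Reads were also matched exactly to GENCODE M21 transcripts (GRCm38), and 71.2% to 72.8% of reads fit a single gene. On simulated counts of 11104 genes edgeR recovered 96% of 2-fold and 100% of 4-fold changes and called 0.0550% of unchanged genes. Changes were put on 100 genes of each size, scarce genes left out, with the same spread set for every gene. Every core gene tested differed by less than 2-fold, so these shares do not give the power for the core genes.

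The genes, the lists and the VL30 and ERVK reads were chosen with earlier results of these data known. Named were every core gene, called genes of the other lists with a log2 fold-change of at least 1 in size (at most 4 a list), Cd24a, both VL30 parts and the 5 ERVK kinds with the most reads, and others where stated. Gene lists came from general knowledge. The alternatives were DESeq2 1.42.0, library totals without TMM, totals of all mapped reads, no filter or a filter of 50 reads in all, single counting of distinct sequences, reads of a single GENCODE gene, the replicate number as a block and each library left out. Libraries of a group differed by more than sampling noise. Chi-square per degree of freedom was 1.71 between CD24- replicates 1 and 2 and 9.33 to 15.2 between the other pairs within a group. Pearson correlations of log2 CPM were 0.996 for CD24- replicates 1 and 2 and 0.988 to 0.993 for those other pairs. CD24- replicates 1 and 2 were therefore the most alike. Intervals and floors cover counting error only.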

Additional observations from a re-analysis of the deposited data

Results flagged for a closer look

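Reads of 5 genes in the lists carried no annotation of that name, although their transcripts took more than 3 reads in every library, the most that a count of 0 allows. These genes are therefore absent from the main gene fit, and their values come from reads that match 1 GENCODE M21 gene. Mki67, a proliferation marker, had 68805 such reads over the 6 libraries, or 982 ± 77.8 per 1000000 such reads on the CD24- plates and 916 ± 194 on the CD24+ plates (SD, n = 3 each), and was not called in edgeR (log2 fold-change -0.10, adjusted p = 0.599). Tet3 had 10189 reads and was lower in CD24+ cells, as given above. Tmem173, which encodes the adaptor STING, had 5970 reads and was lower (-0.30, adjusted p = 0.0318 in edgeR), while the 4 called sensors were higher. Tasor, a HUSH subunit named Fam208a in that annotation, had 2733 reads and was not called (-0.01, adjusted p = 0.912). Gins1, a replication gene, had 1072 reads and was higher (0.52, adjusted p = 0.0238).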

How the results depend on the processing

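Between 4 and 6 of the 9 core genes were called when 1 library was left out. Counts were 4 with each distinct sequence counted once and 7 with reads of a single GENCODE M21 gene. Over all genes, 5117 were called in the main fit and 4048 to 5358 when 1 library was left out. Single counting of distinct sequences gave 3699 calls over all genes, and reads of a single GENCODE M21 gene gave 5532. The other genes of the pathway gave 19 calls, 9 with each distinct sequence counted once and 13 to 20 when 1 library was left out. Repeat kinds gave 106 calls, 26 with each distinct sequence counted once and 60 to 147 when 1 library was left out. With single counting of distinct sequences, the log2 ratio was -1.49 for VL30, -0.0895 for other ERV1 and -0.196 for ERVK. Counting once gives an abundant sequence no more weight than a rare one, so these ratios do not measure abundance. The ratios of summed reads without 1 library lay between -3.42 and -3.18, between -0.71 and -0.52 and between -0.13 and -0.09. The difference in Dnmt3a upstream share, -4.43 percentage points, lay between -8.20 and -2.28 without 1 library.

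Values of some uncalled genes and kinds turned sign. Without CD24- replicate 3, Trim28 was at 0.000484, and without CD24+ replicate 1, Uhrf1 was at 0.00801. Without 1 library, IAPEz-int lay between -0.0509 and 0.00317, RLTR19-int between -0.0604 and 0.101, and IAPLTR1a_Mm between -0.0114 and 0.0528. RLTR19-int was also at -0.00447 with library totals, at -0.0134 with totals of all mapped reads and at -0.218 with each distinct sequence counted once. IAPLTR1a_Mm was at -0.00652 with all mapped reads and at -0.0129 with each distinct sequence counted once, and IAPLTR1_Mm was at -0.155 under the latter. The cause was not tested. Same-numbered libraries deviated from their group means with correlations of 0.01, -0.27 and -0.32, so no pairing by replicate number was seen. With 3 libraries in each group these values cannot exclude a pairing. With the replicate number as a block, 5 core genes, 16 pathway genes and 80 repeat kinds were called, beside 4486 calls over all genes. Depth limits Dnmt3b, with 16 to 53 reads a library, and Tet1.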
